A study of Homo sapiens with 4 samples.

Results

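The aminoacyl-tRNA synthetase genes were examined in DaroR cells, a line of LNCaP prostate cancer cells made resistant to darolutamide by long culture with the drug, with a control siRNA and with siRNA against the long non-coding RNA LOC730101. The members were the rows of the count table whose gene symbol is a letter followed by ARS1 or ARS2, together with EPRS1, AIMP1, AIMP2 and EEF1E1. This rule gave 38 of the 60606 genes in the table, and 37 of these were expressed enough to be tested, along with 19349 genes in all. The 38 genes comprised 16 for cytosolic synthetases, 17 for mitochondrial synthetases, 2 (GARS1 and KARS1) whose products serve both compartments, and 3 for auxiliary proteins.

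Aminoacyl-tRNA synthetases attach each amino acid to its tRNA, and the charged tRNAs feed the ribosome. Human cells use largely separate nuclear genes for the cytosolic and the mitochondrial enzymes. In the cytosol, several of the enzymes are held in a multisynthetase complex by the auxiliary proteins encoded by AIMP1, AIMP2 and EEF1E1. When amino acids are short, uncharged tRNA activates the kinase encoded by EIF2AK4, and the transcription factor ATF4 then raises many of the cytosolic synthetase genes through C/EBP-ATF response elements in their promoters.

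All 4 libraries came from DaroR cells, a single resistant line grown with darolutamide, so that the drug and the resistant state are common to both groups. The 2 siControl libraries followed transfection with a control siRNA, and the 2 siLOC730101 libraries followed transfection with pooled siRNAs that target LOC730101. The labels number the libraries of a group but do not say whether they came from separate cultures, so that the p-values measure only the spread between these libraries, which may be technical. Library totals ranged from 39213498 to 53368158 counts, with the siLOC730101 libraries at 40885634 and 39213498. The count of LOC730101 was 2560 and 2370 with siControl against 633 and 680 with siLOC730101, and its fitted log2 fold change was -1.56 with a standard error of 0.12 and an adjusted p of 4.34e-06 in edgeR. The 10 markers of the LNCaP luminal lineage that were examined, KLK3 among them, summed to 7451 to 8402 normalized CPM, which are counts relative to library size after TMM scaling, with 13.9 to 18.0 for 5 fibroblast markers, of which 2 had 0 counts in every library, and at most 0.278 for 4 leukocyte markers, 2 of which had 0 counts in every library. Of the exon bases of CD68, a leukocyte marker, 85.6% are shared with other genes, so that its counts may be incomplete. The 3 endothelial markers summed to 5.84 to 9.44, almost all of it VWF (238 to 442 counts). The 3 basal markers summed to 0.195 to 0.632, and 2 of them had 0 counts in every library.

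The promoters of the members were read first, because the response element to ATF4 is a known shared control of cytosolic synthetase genes. Promoter windows of 300 bases, from 250 before to 50 after each annotated start, were taken from RefSeq (GRCh38.p14) and were found for 31 of the 38 members. They were searched on both strands for TGATGNAA, the letters of the response element, where N is any base. The letters were found in 8 of 31 members (25.8%) and in 571 of the 15842 protein-coding genes with a window (3.60%). By compartment, 6 of 12 cytosolic members held them, with 1 of 14 mitochondrial members, 1 of 2 members serving both compartments and 0 of 3 auxiliary members. The windows of the 6 cytosolic members and of the single mitochondrial member are printed here around the matched bases, which are in capitals, each read 5′ to 3′ on the strand of its gene in GRCh38.p14.
AARS1, chr16:70289666-70289713, minus strand: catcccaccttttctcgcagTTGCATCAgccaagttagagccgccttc
CARS1, chr11:3057398-3057445, minus strand: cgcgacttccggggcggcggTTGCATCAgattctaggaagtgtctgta
IARS1, chr9:92293683-92293730, minus strand: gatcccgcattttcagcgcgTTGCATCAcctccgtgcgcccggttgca
MARS1, chr12:57488044-57488091, plus strand: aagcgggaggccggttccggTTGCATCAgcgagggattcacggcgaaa
NARS1, chr18:57621807-57621842, minus strand: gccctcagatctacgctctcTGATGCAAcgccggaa
TARS1, chr5:33440947-33440994, plus strand: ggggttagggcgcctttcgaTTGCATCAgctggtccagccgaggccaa
YARS2, chr12:32756067-32756114, minus strand: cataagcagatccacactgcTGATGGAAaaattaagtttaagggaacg

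In all 6 cytosolic members the matched bases read TTGCATCA or its reverse complement TGATGCAA, so that the base left free in the search was the same in each. This form, singled out after the matches were seen, was found in 143 of the 15842 protein-coding genes (0.903%). In CARS1, IARS1, MARS1, NARS1 and TARS1 it began between positions -13 and 14 from an annotated start, and in AARS1 it began at position -187 from the start of its window's transcript. That position depends on the start used. In the count table the AARS1 gene reaches chr16:70289707, so that the matched bases lie within it. The match in YARS2 read TGATGGAA, and that in GARS1, the glycine enzyme of both compartments, read TTTCATCA and began at position -33 from an annotated start. The E-box CACGTG, searched in the same way, was found in 5 of 31 members (16.1%; IARS1, CARS2, EARS2, MARS2 and AIMP2) and in 10.9% of the protein-coding genes. Such matches describe the letters of these windows and do not show binding. LARS1, VARS1, YARS1, AARS2 and VARS2 were not searched.

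To ask whether knockdown of LOC730101 changed the RNA levels of the charging enzymes, the members were compared between siLOC730101 and siControl. The quasi-likelihood test of edgeR called 0 of the 37 members tested higher and 0 lower at an adjusted p below 0.05, and it called 0.212% of all genes tested higher and 0.0724% lower. DESeq2 also called 0 members in either direction, against 1.21% of all genes higher and 0.382% lower. At an unadjusted p under 0.05 in edgeR, 1 member was higher (HARS1) and 0 were lower, against 6.43% and 4.39% of all genes. The log2 fold changes ran from -0.16 for EEF1E1 to 0.20 for HARS1, with 25 members above 0 and 12 below, and with a median of 0.031. The median was -0.0021 over all genes tested and 0.029 over the 2657 genes with at least the median count of the members. The share of genes above 0 was 49.6% and 60.1% in these sets. In bulk RNA, a change in RNA per cell and a change in the make-up of the cells cannot be told apart.

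The precision of these null calls differed between members. The 95% interval of the log2 fold change, taken for each gene alone, lay inside a 1.5-fold change in either direction for 36 of 37 members, SARS2 being the exception, and for 50.6% of all genes tested. It lay inside a 1.25-fold change for 24 members (64.9%). Among the 2657 genes with at least the median count of the members, these shares were 97.8% and 75.6%. The standard error ranged from 0.066 for AARS1 to 0.37 for SARS2. Its median was 0.073 over the cytosolic and 0.10 over the mitochondrial genes. The plot of fitted changes shows these intervals, and the plot against all genes tested shows the members along the centre of the distribution at their level of expression.

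**Figure D1:**
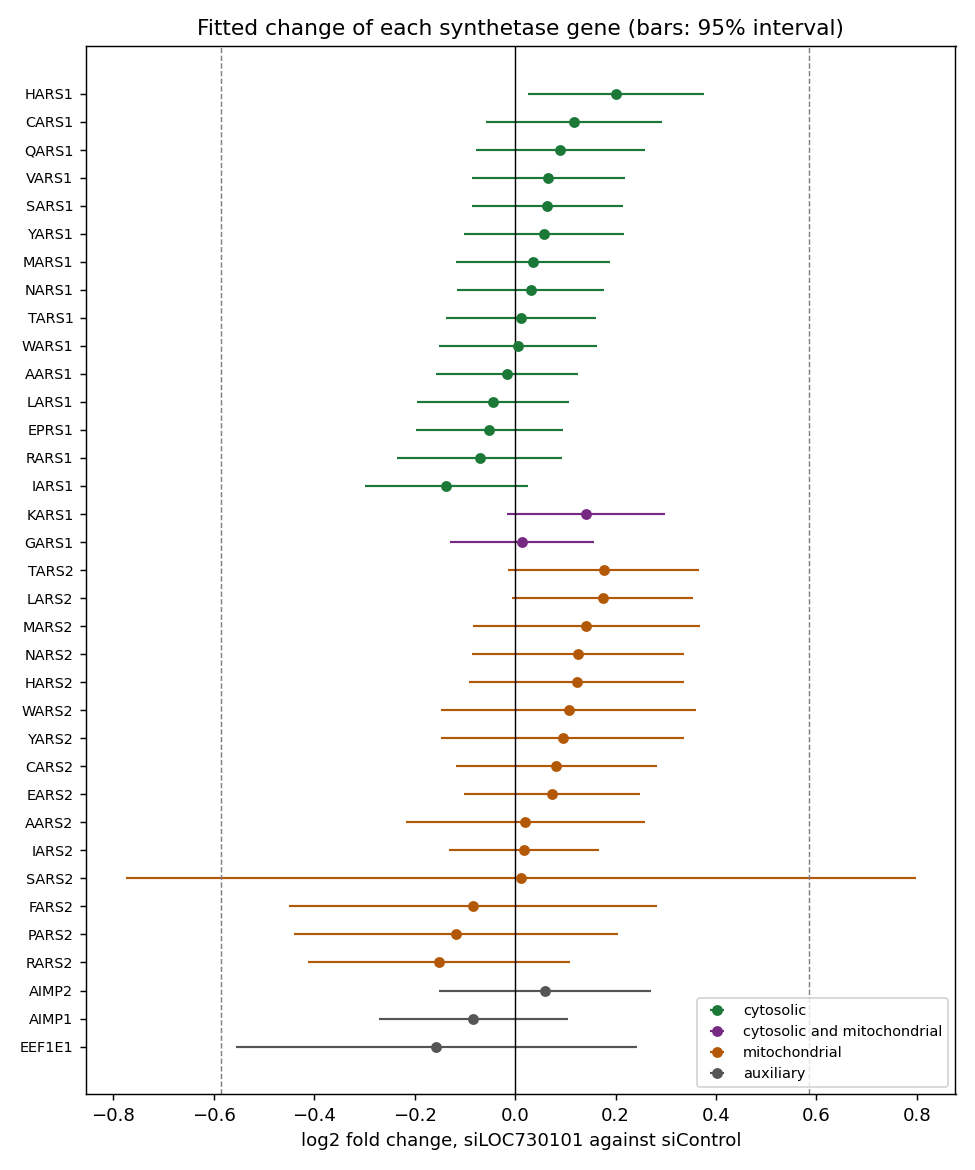
Fitted log2 fold change of 35 of the 37 members tested, siLOC730101 against siControl, on the x axis, with each gene on its own line. Points are the edgeR estimates, bars are 95% intervals, colours are the member groups, and the dashed lines mark a 1.5-fold change. Every interval except that of HARS1 crosses 0, and that of SARS2 alone passes the dashed lines.

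**Figure D2:**
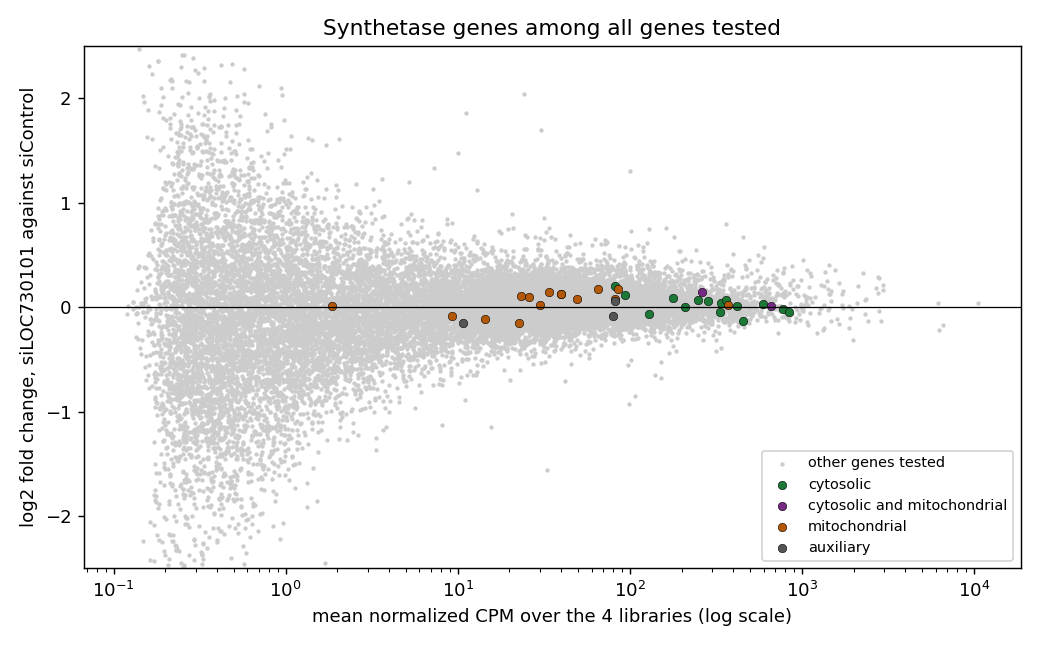
Log2 fold change on the y axis against the mean normalized CPM of the 4 libraries on a log x axis, with 1 point per gene. Grey points are the genes tested, of which 126 of 19349 lie beyond the y axis limits of 2.5, and coloured points are 35 of the 37 members tested. These lie between -0.16 and 0.20, inside the grey cloud at their level.

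Among the cytosolic enzymes, 10 of 16 genes had a log2 fold change above 0 and 6 below, with a median of 0.021. HARS1, the histidine enzyme (chr5:140673035-140691537), had 75.2 and 76.6 normalized CPM in the siControl libraries and 87.01 and 87.5 in the siLOC730101 libraries. Both siLOC730101 libraries lay above both siControl libraries, and the difference was larger than the spread within either group. Its log2 fold change was 0.20 (standard error 0.082), with a 95% interval of 0.026 to 0.38, an unadjusted p of 0.0272 and an adjusted p of 0.368 in edgeR, so that it was not called. Leaving out the libraries one at a time gave values from 0.19 to 0.22, and the other scalings and tests did not turn its direction. Of the exon bases of HARS1, 8.46% are shared with other genes of the table, WDR55 and HARS2 on the opposite strand among them.

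HARS1 and HARS2, its mitochondrial counterpart, are read in opposite directions, and the annotated starts used here lie 85 bases apart. In the annotation of the count table these genes reach further and share 108 exon bases. The stretch between the starts is shown because both members had a log2 fold change above 0 (0.20 and 0.12). Both genes were above 0 in 8 of the 13 pairs compared below, and a shared control was not tested. It is written on the plus strand with the first 20 transcribed bases of HARS2 in capitals at its end, and with those of HARS1, on the other strand, in capitals at its beginning.
HARS1 and HARS2 starts, GRCh38.p14, chr5:140691351-140691474: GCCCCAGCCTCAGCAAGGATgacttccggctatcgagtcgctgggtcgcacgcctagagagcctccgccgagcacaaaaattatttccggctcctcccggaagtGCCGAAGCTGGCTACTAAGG

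HARS2 had 37.7 and 38.5 normalized CPM in the siControl libraries and 39.9 and 43.1 in the siLOC730101 libraries, and its groups did not overlap either. The adjusted p of HARS2 was 0.729 in edgeR. The window of each gene was searched, and neither held TGATGNAA or CACGTG.

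IARS1, the isoleucine enzyme and a large subunit of the multisynthetase complex (chr9:92210207-92293854), was the lowest of the cytosolic genes. It had 481 and 468 normalized CPM in the siControl libraries and 458 and 405 in the siLOC730101 libraries. The groups did not overlap, but most of the difference came from siLOC730101 replicate 2, and replicate 1 lay close to siControl replicate 2. Its fitted log2 fold change was -0.14 (standard error 0.076), with a 95% interval of -0.30 to 0.025 and an adjusted p of 0.555 in edgeR. It was -0.055 without siLOC730101 replicate 2. Without siLOC730101 replicate 1 it was -0.22 with an edgeR adjusted p of 0.0467, the sole call of a member in any setting tried; in that fit 1.27% of all genes were called lower, and the lone siLOC730101 library was assumed to vary like the siControl libraries.

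The 3 cytosolic genes with the highest level per kilobase of exon in the count table were EPRS1, NARS1 and TARS1, none of them called. EPRS1, which encodes the enzyme for both glutamate and proline, had 847 and 867 normalized CPM in the siControl libraries and 855 and 799 in the siLOC730101 libraries, and replicate 2 of siLOC730101 lay below the other 3 libraries. NARS1, the asparagine enzyme, had 572 and 599 normalized CPM with siControl and 605 and 592 with siLOC730101, and TARS1, the threonine enzyme, had 417 and 423 normalized CPM with siControl and 416 and 431 with siLOC730101. For both, the groups overlapped. The log2 fold changes were -0.051 (standard error 0.068) for EPRS1, 0.031 (standard error 0.069) for NARS1 and 0.012 (standard error 0.070) for TARS1, and the 95% intervals were -0.20 to 0.095, -0.12 to 0.18 and -0.14 to 0.16. A change of 1.25-fold in either direction lay outside each of these intervals. Without siLOC730101 replicate 2, EPRS1 was -0.0064 and TARS1 -0.018, and without siLOC730101 replicate 1 they were -0.091 and 0.048. With library size alone as the scaling, which moved the median of all genes by -0.037, NARS1 was -0.0062 and TARS1 -0.026.

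CARS1, which charges tRNA with cysteine, and LARS1, which charges it with leucine, were among the cytosolic genes with the lowest level per kilobase. CARS1 had 92.1 and 87.6 normalized CPM in the siControl libraries and 95.2 and 99.8 in the siLOC730101 libraries, with both siLOC730101 libraries above both siControl libraries. LARS1 had 341 and 335 normalized CPM with siControl and 334 and 321 with siLOC730101, with both siLOC730101 libraries below both siControl libraries by a margin smaller than the spread within a group. The log2 fold change was 0.12 (standard error 0.082) for CARS1 and -0.045 (standard error 0.071) for LARS1, with adjusted p-values of 0.665 and 0.89 in edgeR.

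A further 8 cytosolic genes lay between -0.070 and 0.090 on the log2 scale. In ascending order these were RARS1 for arginine (-0.070), AARS1 for alanine (-0.016), WARS1 for tryptophan (0.0055), MARS1 for methionine (0.035), YARS1 for tyrosine (0.057), SARS1 for serine (0.064), VARS1 for valine (0.066) and QARS1 for glutamine (0.090). Their adjusted p-values ranged from 0.756 to 0.992 in edgeR, and the standard errors from 0.066 to 0.079. WARS1, known also as an interferon-inducible gene, had 214 and 205 normalized CPM with siControl and 207 and 213 with siLOC730101, with overlapping groups. The value of QARS1 rested on siLOC730101 replicate 2 and was 0.0046 when that library was left out, against 0.18 with the other siLOC730101 library left out. MARS1 shares 355 exon bases with DDIT3, a stress-response gene on the opposite strand, and the default of the counting tool leaves out reads that touch both.

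The 2 genes whose products work in both compartments were compared next. KARS1, the lysine enzyme (chr16:75627474-75648643), had 242 and 259 normalized CPM in the siControl libraries and 274 and 278 in the siLOC730101 libraries. Both siLOC730101 libraries lay above both siControl libraries, although the siControl libraries also differed from each other. Its fitted log2 fold change was 0.14 (standard error 0.074), with a 95% interval of -0.015 to 0.30 and an adjusted p of 0.523 in edgeR. Leaving out siControl replicate 1 gave 0.095, and leaving out siControl replicate 2 gave 0.19. GARS1, the glycine enzyme, had 656 and 670.0 normalized CPM with siControl and 666 and 673 with siLOC730101, and its change was fitted at 0.013 (standard error 0.067) on the log2 scale, and at -6.3e-04 to 0.031 with each library left out. Its 95% interval of -0.13 to 0.16 was among the narrowest of the members.

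Mitochondrial synthetases, which charge the tRNAs of the mitochondrial genome, had a median log2 fold change of 0.078, with 12 of the 16 tested above 0 and 4 below. The median was between 0.040 and 0.11 over all scalings, filters, tests and left-out libraries. Summed over the 17 genes, the mitochondrial synthetases took 973 and 986 normalized CPM in the siControl libraries and 1010.5 and 1015 in the siLOC730101 libraries, and the groups did not overlap. This rested on the TMM scaling. As a share of all counts the sums were 0.0985% and 0.0997% with siControl and 0.102% and 0.0982% with siLOC730101, which overlapped. The 16 cytosolic genes summed to 5436 and 5509 in siControl and to 5494 and 5441 in siLOC730101, and these groups overlapped. With the TMM scaling, libraries that did not overlap were found for 9 mitochondrial genes higher and 3 lower, and for 4 cytosolic genes higher and 3 lower. Over all 37 members tested this was 14 higher (37.8%) and 6 lower (16.2%), where 21.3% of all genes tested were higher in this way and 20.5% lower. Among the 2657 genes with at least the median count of the members, these shares were 31.8% and 18.8%. All of these counts of genes and shares depend on the TMM scaling. As a share of all counts, the groups of EARS2 and YARS2 overlapped, and other members, AARS1 and AIMP1 among them, were lower without overlap. None of the mitochondrial genes had an unadjusted p under 0.05 in edgeR, and DESeq2 called 0 of them.

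TARS2, the mitochondrial threonine enzyme (chr1:150487414-150507602), had 63.03 and 60.2 normalized CPM in the siControl libraries and 66.96 and 72.3 in the siLOC730101 libraries. LARS2, the mitochondrial leucine enzyme (chr3:45388561-45554726), had 79.6 and 80.5 normalized CPM with siControl and 94.3 and 86.3 with siLOC730101. In both genes the siLOC730101 libraries were above the siControl libraries and differed from each other by more than the siControl libraries did. The log2 fold change was 0.18 (standard error 0.089) for TARS2 and 0.17 (standard error 0.085) for LARS2, with adjusted p-values of 0.509 and 0.485 in edgeR. MARS2, the methionine enzyme, had 32.7 and 32.2 normalized CPM with siControl and 34.1 and 37.5 with siLOC730101. NARS2, the asparagine enzyme, had 38.3 and 38.4 normalized CPM with siControl and 42.5 and 41.04 with siLOC730101. Neither gene's groups overlapped, and the log2 fold changes were 0.14 (standard error 0.11) and 0.13 (standard error 0.10), with adjusted p-values of 0.694 and 0.715 in edgeR. With each library left out, MARS2 ranged from 0.069 to 0.22 and NARS2 from 0.11 to 0.15.

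At the other end, RARS2, the mitochondrial arginine enzyme (chr6:87513459-87590028), had 22.6 and 25.5 normalized CPM in the siControl libraries and 21.7 and 21.7 in the siLOC730101 libraries. The siLOC730101 libraries were almost equal and lay below both siControl libraries, which differed from each other by more than replicate 1 of siControl did from siLOC730101. The log2 fold change was -0.15 (standard error 0.12), and it was -0.061 without siControl replicate 2. PARS2, for proline, had 14.9 and 15.1 normalized CPM with siControl and 12.6 and 15.1 with siLOC730101, with siLOC730101 replicate 1 below the other 3 libraries. FARS2, for phenylalanine, had 9.55 and 9.66 normalized CPM with siControl and 9.03 and 9.09 with siLOC730101, and both siLOC730101 libraries were the lower ones. Log2 fold changes were -0.12 (standard error 0.15) for PARS2 and -0.084 (standard error 0.17) for FARS2, with adjusted p-values from 0.723 to 0.922 in edgeR for the 3 genes.

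A further 6 mitochondrial genes had log2 fold changes between 0.017 and 0.11. IARS2, for isoleucine, had 367 and 374 normalized CPM with siControl and 378 and 371 with siLOC730101, with overlapping groups. It had a log2 fold change of 0.017 (standard error 0.070), and from 0.0035 to 0.035 with each library left out. WARS2 for tryptophan, YARS2 for tyrosine, CARS2 for cysteine and EARS2 for glutamate had log2 fold changes of 0.11, 0.095, 0.082 and 0.073. In each, the siLOC730101 libraries lay above the siControl libraries in normalized CPM. For YARS2 and EARS2 this rested on the TMM scaling, and their groups overlapped as a share of all counts. AARS2, for alanine, had a log2 fold change of 0.021 with overlapping groups. Adjusted p-values of these 6 genes ranged from 0.82 to 0.977 in edgeR.

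The auxiliary proteins AIMP1, AIMP2 and EEF1E1, which hold the multisynthetase complex together, were also compared. EEF1E1 (chr6:8073360-8102559) had 9.38 and 13.2 normalized CPM in the siControl libraries and 9.61 and 10.6 in the siLOC730101 libraries, so that siControl replicate 2 lay above the other 3 libraries. Its log2 fold change of -0.16 (standard error 0.19), the lowest of the members, turned to 0.11 without that library. AIMP1 had 82.03 and 82.9 normalized CPM with siControl and 82.6 and 73.1 with siLOC730101, with siLOC730101 replicate 2 below the rest and a log2 fold change of -0.083 (standard error 0.088), which was -5.8e-04 without that library. AIMP2 had 75.1 and 84.9 normalized CPM with siControl and 76.2 and 90.6 with siLOC730101, and its change was fitted at 0.060 (standard error 0.10) on the log2 scale. Its replicates differed within both groups, with replicate 2 above replicate 1 in each. The groups of all 3 genes overlapped, and the adjusted p-values were 0.839, 0.809 and 0.898 in edgeR.

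The 11 members of the multisynthetase complex (among them EPRS1, IARS1, LARS1, MARS1, QARS1, RARS1, KARS1, AIMP1, AIMP2 and EEF1E1) had a median log2 fold change of -0.045, with 4 above 0 and 7 below. The 10 synthetases of the cytosol outside the complex, GARS1 included, had a median of 0.044, with 9 above 0 and 1 below. Over all genes tested 49.6% were above 0, and 60.1% over the 2657 genes with at least the median count of the members. With library size alone as the scaling, GARS1, NARS1, TARS1 and WARS1 outside the complex were also below 0, and so was MARS1 inside it. The difference between the complex and the synthetases outside it was not tested. The complex summed to 2853 ± 32.3 normalized CPM (SD, n = 2) with siControl and to 2805 ± 45.8 (SD, n = 2) with siLOC730101, and the groups overlapped, at 2830.0 and 2876 against 2838 and 2773. As a share of all counts, without the TMM scaling, the complex took 0.287% and 0.291% with siControl. With siLOC730101 it took 0.285% and 0.268%, and on this scale the groups did not overlap. The median of the complex was 0.017 without siControl replicate 2. The log2 fold change of the 16 cytosolic genes had a Spearman correlation of -0.52 with the length of the canonical transcript, and one of -0.53 was found over 2642 genes with at least the median count of the members. Over all 18913 genes tested that had a transcript length, the correlation was -0.093. Over all 37 members it was -0.014 and over the 16 mitochondrial genes 0.27. The correlations are across genes, which are not independent replicates, and the points share the same 4 libraries. The part of transcript length in the order of the cytosolic genes was not tested.

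The level of the members was then compared per kilobase of exon, with the exon length of the count table. The 16 cytosolic genes had a median level of 37.7 normalized CPM per kilobase in siControl, from 5.36 for HARS1 to 161 for EPRS1, and the 17 mitochondrial genes had a median of 6.38. The ratio of these medians was 5.91. EPRS1 (161 ± 2.54, SD, n = 2), NARS1 (143 ± 4.72, SD, n = 2) and TARS1 (98.7 ± 1.03, SD, n = 2) were highest among the cytosolic genes. HARS1 (5.36 ± 0.0736, SD, n = 2), CARS1 (8.95 ± 0.317, SD, n = 2) and LARS1 (16.4 ± 0.230, SD, n = 2) were lowest. KARS1 had 61.8 ± 2.96 and GARS1 38.2 ± 0.552 (SD, n = 2 each). Among the auxiliary genes AIMP2 had 43.8 ± 3.78, AIMP1 8.91 ± 0.0681 and EEF1E1 5.40 ± 1.28 (SD, n = 2 each).

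Of the mitochondrial genes, IARS2 stood apart with 89.6 ± 1.31 normalized CPM per kilobase (SD, n = 2), the fifth highest level of the 38 members. It was followed by TARS2 (15.3 ± 0.500), and the lowest levels were those of RARS2 (1.37 ± 0.115), SARS2 (0.597 ± 0.0344) and VARS2. The plot of levels shows the 4 libraries of each gene close together compared with the distance between genes.

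**Figure D3:**
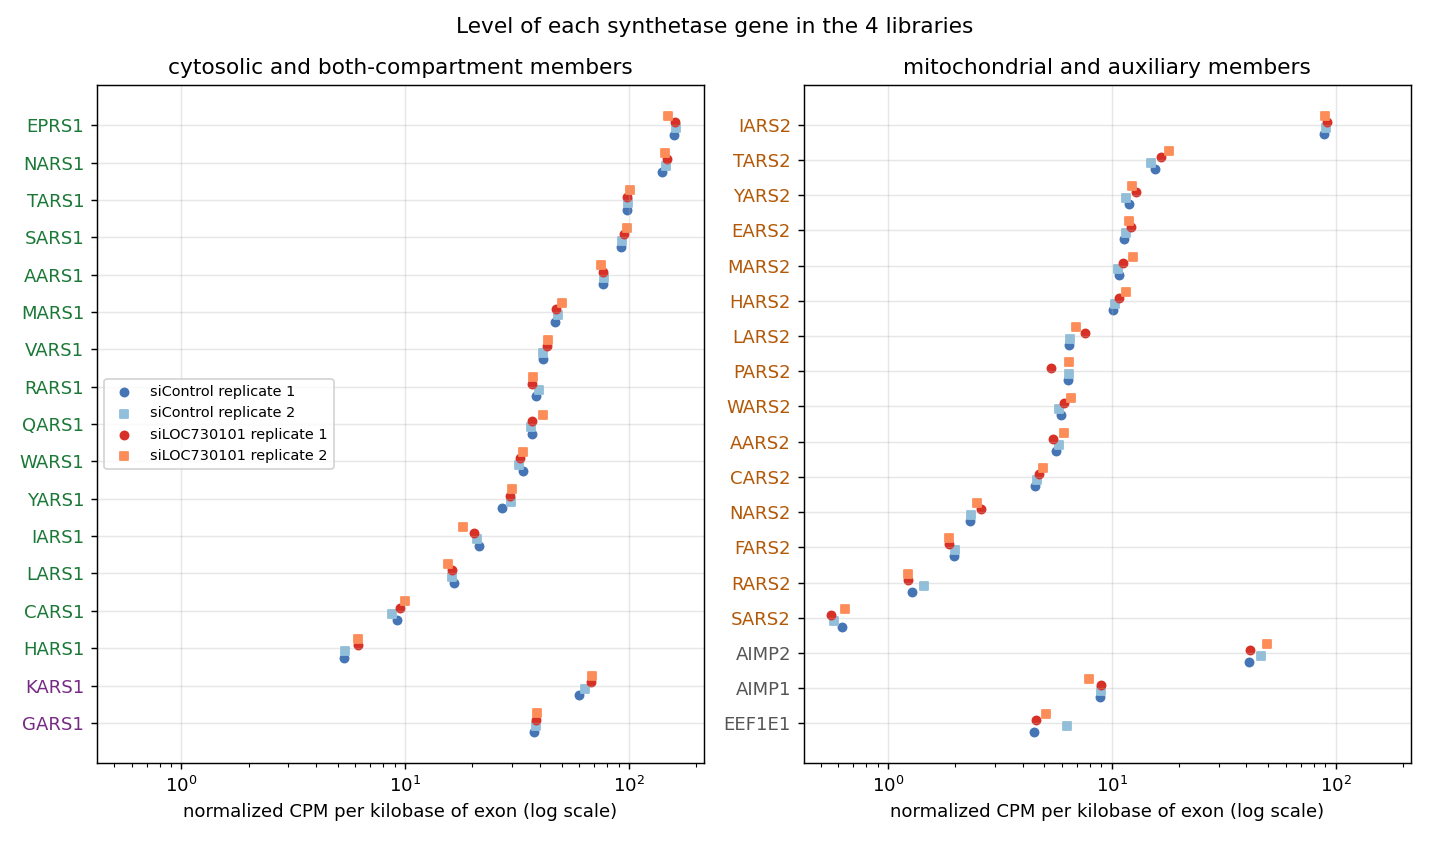
Normalized CPM per kilobase of exon on a log x axis for 35 members, with each gene on its own line and 1 point per library. The left panel holds the cytosolic genes and the 2 genes of both compartments, the right panel the mitochondrial and auxiliary genes; VARS2, at 1 count in all, is not drawn. IARS2, at 89.6, is far above the other mitochondrial genes, of which TARS2 is next at 15.3.

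These levels depend on the length used, because the exon length in the table joins the exons of every annotated transcript of a gene. HARS1 has 14155 exon bases in the table and 1948 in its canonical transcript in a GRCh37 annotation, and its level rose from 5.36 to 38.96 normalized CPM per kilobase with the shorter length. GARS1 rose from 38.2 to 272, the highest of the members, followed by AARS1 at 229 and NARS1 at 212. EPRS1, whose lengths are 5323 and 4862 bases, had 176 and was then the fifth. IARS2 stayed the highest mitochondrial gene, at 105.

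For 13 amino acids a cytosolic and a mitochondrial gene were compared as a pair, VARS1 and VARS2 aside. With the exon length of the table, the cytosolic gene was at the higher level in 11 pairs and the mitochondrial gene in 2, IARS1 with IARS2 and HARS1 with HARS2, and the median ratio was 5.60. In each of these 13 pairs the order of the genes was the same in all 4 libraries. With the canonical transcript length the cytosolic gene had the higher siControl mean in all 13 pairs, with a median ratio of 9.54. The ratio of IARS1 to IARS2 was then 1.01, where it had been 0.236, so that the isoleucine genes were the most nearly equal pair, and IARS2 was the higher of these genes in 3 of the 4 libraries. NARS1 was 61.2 times NARS2 by the first length and 13.9 times by the second, and RARS1 was 28.5 and 5.83 times RARS2. The log2 fold changes of both genes of a pair were above 0 in 8 pairs and below 0 in 1, and differed in sign in 4.

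**Figure D4:**
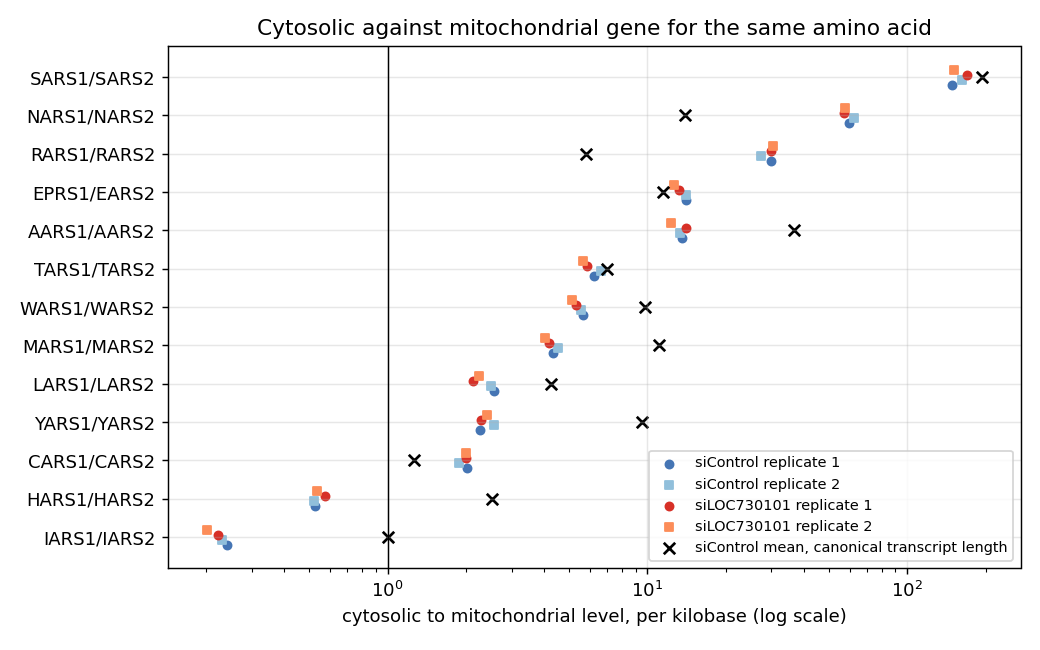
Ratio of the level per kilobase of the cytosolic gene to that of the mitochondrial gene for the same amino acid, on a log x axis, for 13 pairs. Circles and squares are the 4 libraries with the exon length of the count table, crosses are the siControl mean with the canonical transcript length, and the vertical line marks a ratio of 1. The points of the 4 libraries lie close together in every pair, and the crosses move HARS1/HARS2 and IARS1/IARS2 across or onto the line.

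The valine and serine enzymes of the mitochondrion were nearly absent from the counts. VARS2 had 1 count in siControl replicate 1 and 0 counts in the other 3 libraries, and it was the member that did not pass the filter. The counts of SARS2 were 104 and 83 with siControl against 71 and 76 with siLOC730101, and the fitted log2 fold change was 0.012 (standard error 0.37) with a 95% interval of -0.77 to 0.80. Of the exon bases of VARS2, 63.0% are shared with ENSG00000288473, a gene on the same strand that had 0 counts in each library, and 48.2% of those of SARS2 are shared with ENSG00000269547, likewise at 0 counts. The counting command in the header of the table sets no option to count a read that overlaps more than 1 gene, and the tool leaves such reads out by default. Divided by the exon bases that no other gene shares, the siControl level of SARS2 was 1.15 normalized CPM per kilobase and that of VARS2 0.00386, and they were still the lowest of the members. Whether reads were lost over the rest of these genes was not tested. The next highest shares were 29.1% for AIMP2, with EIF2AK1 on the opposite strand, 18.8% for EEF1E1, with the read-through gene EEF1E1-BLOC1S5, and 18.1% for YARS2. Of 16 pseudogenes in the table named for a member, 11 had 0 counts, and EEF1E1P1 had 28 and 30 counts in siControl and 37 and 24 in siLOC730101, where EEF1E1 itself had 507 and 616 counts in siControl and 395 and 402 in siLOC730101.

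**Figure D5:**
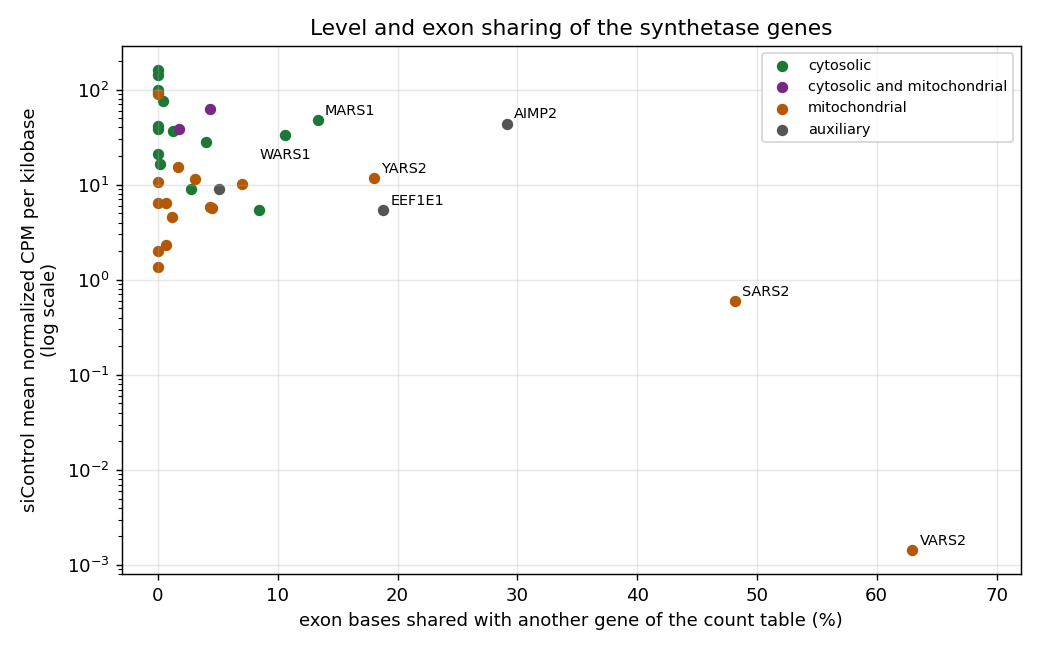
Mean siControl level in normalized CPM per kilobase on a log y axis against the share of exon bases that a gene has in common with another gene of the count table, in percent, for 36 members. Colours are the member groups, and genes above 10% are named. VARS2 and SARS2, at 63.0% and 48.2%, have the lowest levels of the members.

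The members whose window held TGATGNAA, the letters of the response element, were compared with the other searched members as a description. A match does not show a working element, and a window without one does not show its absence elsewhere. The 8 members with TGATGNAA had log2 fold changes from -0.14 (IARS1) to 0.12 (CARS1), with a median of 0.022, and the 23 other members that were searched and tested had a median of 0.064. Within the cytosolic genes the medians were 0.021 for the 6 genes with a match and 0.035 for the 6 without. In siControl, the 6 cytosolic genes with a match had a median level of 62.1 normalized CPM per kilobase (138 with the canonical length), and the 6 without had 37.7 (74.8 with the canonical length). The 2 ranges overlapped, from 8.95 to 143 and from 5.36 to 161.

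Genes next to the members in the pathway were read in 2 further lists. Of 17 genes that take part in charging, editing or export of tRNA outside the rule, 16 were tested, 9 had a log2 fold change above 0 and 7 below, with a median of 0.0022, and 0 were called by edgeR or by DESeq2. FARSA and FARSB, the subunits of the cytosolic phenylalanine enzyme, had log2 fold changes of 0.10 and -0.013, and TARS3, a further threonine enzyme gene, had 0.10. The list ran from -0.59 for AARSD1, with a standard error of 0.39, to 0.44 for PSTK. At an unadjusted p under 0.05 in edgeR, 3 genes of the list were higher and 0 lower, against 6.43% and 4.39% of all genes tested. PSTK, a kinase on the route to selenocysteine tRNA, had 9.68 and 11.4 normalized CPM with siControl and 14.4 and 14.2 with siLOC730101 and a log2 fold change of 0.44 (standard error 0.16). DTD1, which removes wrongly attached D-amino acids, had 19.3 and 17.97 normalized CPM with siControl and 22.1 and 23.4 with siLOC730101, and its change was fitted at 0.29 (standard error 0.12) on the log2 scale. GATB, a subunit of the amidotransferase that makes mitochondrial glutamine tRNA, had 22.8 and 22.6 normalized CPM with siControl and 25.2 and 29.3 with siLOC730101, and its change was fitted at 0.26 (standard error 0.12) on the log2 scale. The libraries of these 3 genes, which were picked by their p, did not overlap between groups. Of all genes tested, 21.3% were higher in this way. The adjusted p-values of PSTK, DTD1 and GATB were 0.282, 0.417 and 0.455 in edgeR.

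In the list of 25 genes of the amino acid response, 15 were above 0 and 10 below, with a median log2 fold change of 0.035. ATF4 itself had 569 and 585 normalized CPM in the siControl libraries and 585 and 652 in the siLOC730101 libraries. The log2 fold change of ATF4 was 0.10 (standard error 0.074) and its adjusted p 0.683 in edgeR. EdgeR called 0 genes of the list, with 1 higher and 1 lower at an unadjusted p under 0.05, and DESeq2 called 0 higher and 1 lower. Of all genes tested, 6.43% were higher and 4.39% lower at that unadjusted p, and DESeq2 called 1.21% higher and 0.382% lower. The lower gene in both tools was SLC7A5, a transporter of large neutral amino acids, with 16.6 and 16.8 normalized CPM with siControl and 10.5 and 12.1 with siLOC730101. Fitted at -0.57 (standard error 0.15) on the log2 scale, it had an adjusted p of 0.135 in edgeR and 0.0459 in DESeq2. SLC3A2, which encodes its partner chain, had a log2 fold change of -0.0017. The higher gene was SESN2, a stress-induced inhibitor of mTORC1 signalling, with 69.7 and 63.3 normalized CPM with siControl and 74.7 and 77.1 with siLOC730101. The fitted change of SESN2 was 0.19 (standard error 0.089) on the log2 scale, with an adjusted p of 0.458 in edgeR. CHAC1, TRIB3 and DDIT3, which ATF4 raises strongly under stress, had log2 fold changes of 0.12, 0.011 and 0.14, none with an unadjusted p under 0.05.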

How the data were processed

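The 4 libraries, 2 siControl and 2 siLOC730101, were grouped by their labels. Reads were trimmed and aligned by the authors, who deposited unnormalized counts per gene made with featureCounts 2.0.1. The header of the deposited table names hg38 and gencode version 41, hg19 and STAR are given in the paper's methods, and the submitters' processing notes list BWA, so that the aligner is uncertain. No option for read pairs or strand stands in the counting command. Even numbers made up 66.0% to 70.1% of the values from 1 to 20 in each library, and mates may therefore have been counted apart. Totals ranged from 39213498 to 53368158.

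The whole table was fitted in R 4.3.3 with edgeR 4.0.16 (default filterByExpr, TMM, glmQLFit, condition alone), and p-values were adjusted by Benjamini-Hochberg over the 19349 genes tested. The standard error of a log2 fold change is its size divided by the square root of the F statistic. DESeq2 1.42.0 was an alternative. For 2 libraries against 2, exact permutation could reach no p below 0.333 (two-sided). Shared exon bases came from the exon positions in the count table (GRCh38), canonical transcript lengths from a GRCh37 annotation (gencode version 44, joined by symbol), and promoter windows from RefSeq (GRCh38.p14). The last 25 bases of 40 of 43 windows were found in a transcript of the same gene in the direction given.

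The members, lists and tests were chosen with earlier results of these data known. Except for 2 members that are not reported here, every member was named, and values in each library were given for the 6 highest and 6 lowest log2 fold changes, for the 3 highest and 3 lowest levels of each group, and for an unadjusted p under 0.05. Values of WARS1, HARS2 and ATF4 were added beside these. Of the further lists, genes with an unadjusted p under 0.05 were given by library, and the other genes named from them were chosen after their values were seen. Alternatives were other scalings, filters, quasi-likelihood settings, DESeq2, a replicate term, counts divided by 2, each library left out and, added after the data were seen, other gene lengths. The count table held no columns beyond those of these libraries (0 left unused).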

Additional observations from a re-analysis of the deposited data

How the results depend on the processing

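The number of members called stayed at 0 in either direction in every alternative run except that without siLOC730101 replicate 1, so that the count called lower ranged from 0 to 1 over the left-out libraries. Of 35 members, 23 kept the direction of their log2 fold change in all 14 alternatives of the fit and 12 did not. With upper-quartile scaling, which moved the median of all genes by -0.031, the medians were -0.0096 for cytosolic, 0.047 for mitochondrial and -0.075 for complex genes, and the members that turned were IARS2 (-0.014), TARS1 (-0.019), AARS2 (-0.011), GARS1 (-0.018), WARS1 (-0.026) and SARS2 (-0.020). With library size alone, which moved the median of all genes by -0.037, the medians were -0.0062 for all members, -0.016 for cytosolic, 0.040 for mitochondrial and -0.082 for complex genes, and those that turned were IARS2 (-0.020), TARS1 (-0.026), AARS2 (-0.018), GARS1 (-0.025), MARS1 (-0.0029), WARS1 (-0.032), NARS1 (-0.0062) and SARS2 (-0.027). With a filter of at least 1 CPM in 2 libraries, TARS1 (-0.0030), GARS1 (-0.0017), WARS1 (-0.0092) and SARS2 (-0.0035) turned. A common shift of all genes is built into both scalings. The ratio of cytosolic to mitochondrial levels was 7.75 with canonical transcript lengths and 5.95 with unshared exon bases, both chosen after seeing the data.

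Over the 4 fits that each left out 1 library, the medians ranged from 0.0024 to 0.076 for all members, from -0.0076 to 0.043 for cytosolic, from 0.049 to 0.11 for mitochondrial and from -0.053 to 0.017 for complex genes. In the same fits the log2 fold change ranged from -0.0038 to 0.13 for YARS1, -0.26 to 0.020 for PARS2, -0.018 to 0.048 for TARS1, -0.38 to 0.11 for EEF1E1, -0.067 to 0.11 for AARS2, -0.073 to 0.19 for AIMP2, -6.3e-04 to 0.031 for GARS1, -0.011 to 0.087 for MARS1, -0.021 to 0.038 for WARS1, -0.0012 to 0.068 for NARS1 and -0.10 to 0.12 for SARS2. These 11 genes changed sign in at least 1 of the fits. Of the other 24, 15 moved by over 1.5 times in at least 1 fit, and 9 (HARS1, CARS1, VARS1, KARS1, LARS2, NARS2, YARS2, EARS2 and FARS2) did not.

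The labels do not say whether same-numbered libraries were paired. Deviations of same-numbered libraries from their group means had a correlation of 0.029 over 14245 genes. With 2 libraries a group this cannot decide whether they shared a culture or a day. With the replicate number as a block, 0 members were called, and the lowest adjusted p was 0.231 (HARS1). Over all genes, 485 were called higher and 167 lower with the block, against 41 and 14 without it. The other alternatives called 38 to 923 genes higher and 14 to 272 lower, the most without siLOC730101 replicate 1. Depth and 2 libraries a group limit what can be said: SARS2 and VARS2 had too few counts for any statement on direction.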
